A study of Mus with 8 samples.

Results

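The genes described here are 10 growth factors, receptors and a transcription factor linked to hair growth and skin vessels: Vegfa, Vegfb, Flt1, Kdr, Hif1a, Igf1, Igf1r, Fgf7, Met and Pdgfa. They were picked by name, and each was read from the probeset carrying only that symbol with the highest mean over the arrays. All 10 were found among 14980 named genes, and all 10 were among the 11235 genes bright enough to be tested. RNA from mouse skin with its hair follicles was measured on 8 Affymetrix arrays in 4 groups of 2. Male C57BL6 mice, 6 weeks old before 7 days of acclimatization, were put at random into groups of 5, and their hair was trimmed and removed. For 20 days their skin was treated with MilliQ water (the untreated group), with 1% minoxidil, with 1% keratin or with 1% microsphere keratin. Minoxidil, a vasodilator that promotes hair growth, was the study's positive control. Hair shafts are built of keratin, which was given here as such or as microspheres. The labels number the arrays 1 and 2 in each group and do not say whether these are animals, pools or repeats. The p-values therefore measure only the spread between arrays, which may be technical.

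Vegfa and Vegfb are secreted ligands of vascular endothelial growth factor receptors, which sit mainly on endothelial cells. Flt1 encodes the receptor that binds both ligands, and Kdr the receptor that carries most of the Vegfa signal. Hif1a encodes the oxygen-regulated subunit of a transcription factor whose targets include Vegfa. Igf1 and Fgf7 are made largely by the dermal papilla and dermal fibroblasts and act on follicle keratinocytes, through Igf1r in the case of Igf1. Met is the receptor of hepatocyte growth factor, and Pdgfa is a ligand that epithelial cells make for dermal mesenchyme.

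The tissue label was set against marker genes. Keratinocyte markers (4 of 4 named, among them Krt5 and Krt14) and hair follicle markers (6 of 7 named, among them Krt27 and Krt75) were above the brightest background control on at least 1 array each. Of 6 dermal papilla markers named, 4 were at or below the brightest background control on every array. Array quality was uneven. Over all probesets, the r of minoxidil array 1 with each other array was 0.390 to 0.474, and that of untreated array 1 with the remaining 6 was 0.886 to 0.932. These 6 correlated with each other at 0.941 to 0.988. The 3′ beta-actin probeset read 47.2 on minoxidil array 1, 656 on untreated array 1 and 1448 to 1883 on the 6 others. Differences are therefore also given within the number 1 and within the number 2 arrays.

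No member passed the test in any comparison. limma, with Benjamini-Hochberg adjustment over 11235 genes and a threshold of 0.05, called 0 of 10 members for minoxidil, keratin or microsphere keratin against untreated and for microsphere keratin against keratin. The share of all genes called was 0% in each comparison, and the adjusted p of every member was 1.00. Unadjusted p-values below 0.05 were reached by 0 members in each comparison, against 46, 43, 10 and 14 of all genes in that order. The smallest two-sided p that an exact permutation test of 2 arrays against 2 allows is 0.333. Leaving out minoxidil array 2 gave 902 genes called for minoxidil, 314 higher and 588 lower, with 0 of the 10 members among them. That fit compares minoxidil array 1 alone with untreated skin and assumes that it varies like the other groups. The 10 genes are therefore described below by their values.

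**Figure D1:**
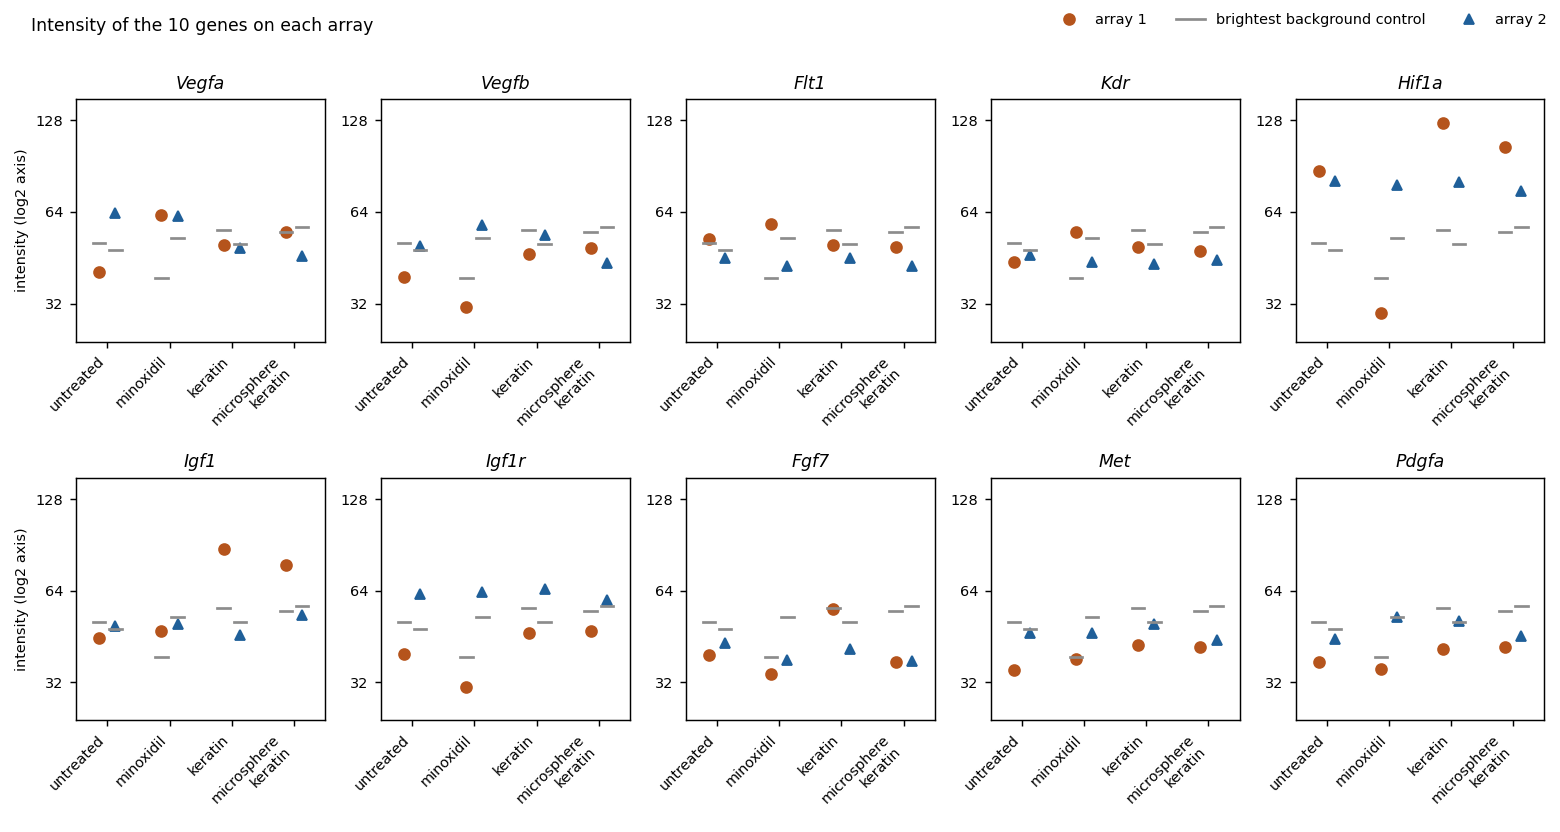
Intensity (log2 axis) of the 10 genes on the 8 arrays. Circles are array 1 and triangles array 2 of each group, and grey bars mark the brightest of 23 background control probesets on that array. Igf1 stood at 88.0 and 77.8 on keratin array 1 and microsphere keratin array 1, and Hif1a at 29.9 on minoxidil array 1, while the points of the other 8 genes lay between 30.9 and 64.9.

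Most members were dim. The 23 background control probesets had medians of 26.5 to 30.3 per array and a brightest value of 38.9 to 57.0. All 10 genes were above the background median on all 8 arrays. Hif1a was above the brightest control on 7 arrays, Igf1 and Igf1r on 4, Vegfa and Vegfb on 3, Flt1 and Pdgfa on 2 and Kdr on 1. Fgf7 and Met were above it on 0. The deposited intensities still contain background, so differences of dim genes are smaller on this scale than they would be without it.

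Vegfa, the main vessel growth factor, had its highest group mean with minoxidil. Its intensity was 40.6 and 63.5 on untreated arrays 1 and 2, 62.7 and 61.9 with minoxidil, 49.7 and 48.8 with keratin, and 54.8 and 45.8 with microsphere keratin. Both minoxidil arrays lay within the range of the untreated arrays, and above all 4 keratin and microsphere keratin arrays. The minoxidil difference on the log2 scale was 0.30 ± 0.25 (SE; 95% interval -0.27 to 0.86), made up of 0.63 in the number 1 arrays and -0.04 in the number 2 arrays. For keratin it was -0.04 ± 0.25 (SE), with 0.29 and -0.38 in the numbered pairs. For microsphere keratin it was -0.02 ± 0.25 (SE), with 0.43 and -0.47. The sign thus turned between the pairs in all 3 comparisons with untreated skin. Untreated array 1 held the lowest Vegfa value of the 8 and untreated array 2 the highest.

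Vegfb, a ligand of Flt1 that does not bind Kdr, gave 39.2 and 49.6 on the untreated arrays, 31.2 and 58.0 with minoxidil, 46.5 and 53.8 with keratin, and 48.6 and 43.6 with microsphere keratin. Its lowest and highest values were both on minoxidil arrays, and the untreated and minoxidil arrays overlapped. Its differences from untreated were -0.05, 0.18 and 0.06 for minoxidil, keratin and microsphere keratin, each ± 0.28 (SE). With keratin Vegfb was higher in both numbered pairs, by 0.25 and 0.11, although the groups overlapped.

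Flt1, which binds Vegfa and Vegfb and also exists as a soluble decoy, varied little. It read 52.3 and 45.2 on the untreated arrays, 58.3 and 42.5 with minoxidil, 50.01 and 45.02 with keratin, and 49.0 and 42.5 with microsphere keratin. Array 1 was above array 2 in all 4 groups. Flt1 was above the brightest background control on only 2 arrays. The differences from untreated, 0.03, -0.04 and -0.09 with an SE of 0.20, were smaller than the differences between arrays of a group.

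Kdr, which passes the mitogenic Vegfa signal on in endothelium, varied little outside minoxidil array 1. Its intensity was 43.8 and 46.2 on the untreated arrays, 55.0 and 43.8 with minoxidil, 49.1 and 43.2 with keratin, and 47.8 and 44.6 with microsphere keratin. Without minoxidil array 1 its whole range over 7 arrays was 0.19 on the log2 scale, against 0.30 to 0.97 for the other 9 genes. Kdr was above the brightest background control only on minoxidil array 1, and dim genes differ less on this scale. The differences from untreated were 0.13, 0.03 and 0.04, each ± 0.17 (SE). The 95% interval for keratin ran from -0.36 to 0.43 and that for microsphere keratin from -0.36 to 0.43. Endothelial markers (12 of 19 named, 5 of them at or below the brightest background control on every array) had a mean log2 intensity of 5.22 to 5.45 over the 8 arrays. Their part in the receptor values was not tested, and in whole skin fewer cells of a type and less RNA per cell cannot be told apart.

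Hif1a varied most on the number 1 arrays. Its intensity was 87.2 and 80.9 on the untreated arrays, 29.9 and 78.3 with minoxidil, 126 and 80.4 with keratin, and 105 and 74.9 with microsphere keratin. Minoxidil array 1 stood far below every other array, and keratin array 1 and microsphere keratin array 1 above every other. The 4 number 2 arrays lay between 74.9 and 80.9. The minoxidil difference was -0.80 ± 0.50 (SE; 95% interval -1.93 to 0.34), with -1.55 within the number 1 arrays and -0.05 within the number 2 arrays. The keratin and microsphere keratin differences were 0.26 and 0.08, each ± 0.50 (SE). Number 1 pairs gave 0.53 and 0.27 for them, and number 2 pairs -0.01 and -0.11.

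Igf1, a growth factor that prolongs the growing phase of follicles in culture, had the largest keratin difference of the 10. It read 44.8 and 48.9 on the untreated arrays, 47.2 and 49.7 with minoxidil, 88.0 and 45.7 with keratin, and 77.8 and 53.1 with microsphere keratin. Keratin array 1 and microsphere keratin array 1 stood apart from the 6 other arrays, which lay between 44.8 and 53.1. Both microsphere keratin arrays were above both untreated arrays, whereas the keratin arrays overlapped them. The keratin difference was 0.44 ± 0.33 (SE; 95% interval -0.32 to 1.19), with 0.97 within the number 1 arrays and -0.10 within the number 2 arrays. The microsphere keratin difference was 0.46 ± 0.33 (SE; 95% interval -0.29 to 1.21), with 0.80 and 0.12. Markers of other cells were high on the same arrays. Fibroblast markers (5 of 5 named, among them Col1a1 and Dcn) had a mean log2 intensity of 9.15 on keratin array 1 and 9.31 on microsphere keratin array 1, against 5.84 to 8.28 elsewhere. Macrophage and dendritic markers (6 of 6 named, 1 at or below the brightest background control throughout) had 7.09 and 6.93 there, against 5.56 to 6.22 elsewhere. Their part in the Igf1 values was not tested.

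Igf1r, the receptor of Igf1, followed the array number more than the treatment. Its intensity was 39.7 and 62.5 on the untreated arrays, 30.9 and 63.7 with minoxidil, 46.6 and 64.9 with keratin, and 47.3 and 59.6 with microsphere keratin. Every number 2 array was above every number 1 array. The differences from untreated were -0.17, 0.14 and 0.09, each ± 0.37 (SE), and within the number 2 arrays they were 0.03, 0.05 and -0.07. Skeletal muscle markers (6 of 6 named) were also higher on array 2 in the untreated, minoxidil and keratin groups. Their mean log2 intensity was 7.99 and 10.9 on the untreated arrays, 4.92 and 11.1 with minoxidil, 9.04 and 10.8 with keratin, and 10.4 and 10.1 with microsphere keratin. Their part in the Igf1r values was not tested.

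Fgf7, the keratinocyte growth factor that dermal cells supply to epithelium, had arrays apart in 3 of the 4 comparisons. It read 39.4 and 43.1 on the untreated arrays, 34.2 and 37.8 with minoxidil, 55.7 and 41.1 with keratin, and 37.2 and 37.5 with microsphere keratin. All 4 minoxidil and microsphere keratin arrays were below both untreated and both keratin arrays, and the untreated and keratin arrays overlapped. The differences from untreated were -0.20 for minoxidil (95% interval -0.56 to 0.17), 0.22 for keratin (-0.15 to 0.58) and -0.14 for microsphere keratin (-0.51 to 0.22), each ± 0.16 (SE). Microsphere keratin was 0.36 below keratin on the log2 scale (-0.36 ± 0.16, SE; 95% interval -0.72 to 0.01). Its unadjusted limma p of 0.0541 was the lowest of any member in any comparison, and the adjusted p was 1.00. The number 1 pair gave -0.58 for this difference and the number 2 pair -0.13. Without keratin array 1 the keratin difference from untreated was -0.0036 and the microsphere keratin difference from keratin -0.14. Without keratin array 2 the 2 values were 0.43 and -0.58. Fgf7 was below the brightest background control on every array.

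Met, the receptor of hepatocyte growth factor on epithelial cells, read 35.2 and 46.6 on the untreated arrays, 38.2 and 46.6 with minoxidil, 42.4 and 49.9 with keratin, and 41.8 and 44.2 with microsphere keratin. Array 2 was above array 1 in all 4 groups, and the groups overlapped. It differed from untreated by 0.06, 0.18 and 0.09, each ± 0.18 (SE). With keratin Met was higher in both numbered pairs, by 0.27 and 0.10.

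Pdgfa, a ligand that the follicle epithelium sends to dermal cells, read 37.4 and 44.5 on the untreated arrays, 35.3 and 52.6 with minoxidil, 41.1 and 50.9 with keratin, and 41.9 and 45.3 with microsphere keratin. Array 2 was again the higher in every group. Differences from untreated of 0.08, 0.16 and 0.10, each ± 0.21 (SE), were found. Pdgfa was above its untreated partner in both numbered pairs for keratin, by 0.13 and 0.20, and for microsphere keratin, by 0.16 and 0.03.

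The order of the group means differed from gene to gene. Keratin was highest for Vegfb, Hif1a, Igf1r, Fgf7, Met and Pdgfa, minoxidil for Vegfa, Flt1 and Kdr, and microsphere keratin for Igf1. For Flt1 and Kdr the place of minoxidil rested on minoxidil array 1. Without that array their minoxidil differences from untreated were -0.20 and -0.04. Places of keratin also rested on single arrays for some genes. Without keratin array 1 the keratin differences from untreated were -0.064 for Hif1a and -0.0036 for Fgf7. Without keratin array 2 that of Igf1r was -0.096. Of the 30 neighbouring pairs of groups in these orders, 28 overlapped between arrays. The 2 that lay apart are 6.67% of the pairs, against 9.24% of the neighbouring pairs over all genes tested. They were Hif1a, where minoxidil lay below untreated, and Fgf7, where microsphere keratin lay below untreated.

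**Figure D2:**
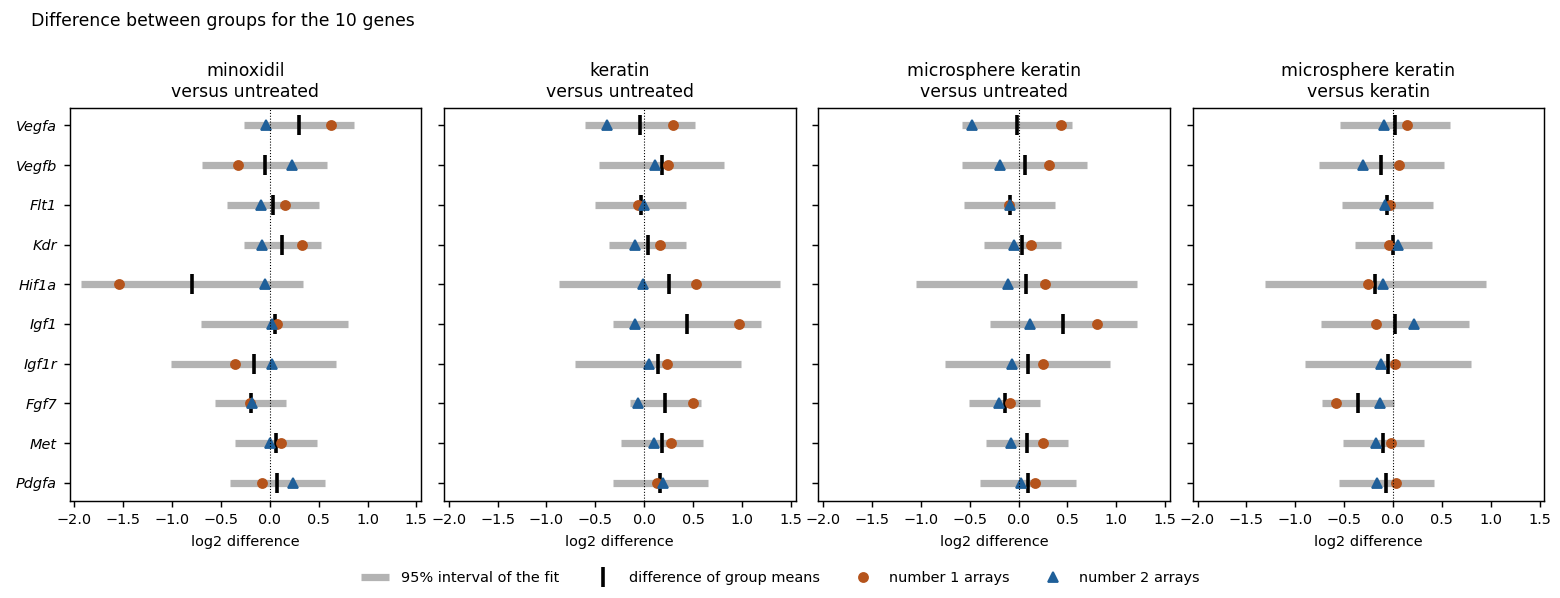
Log2 difference of each gene in the 4 comparisons. Black bars are differences of group means, grey bars their 95% intervals from the limma fit, circles the number 1 arrays alone and triangles the number 2 arrays alone. Each interval includes 0, and circles and triangles often lie on opposite sides of 0, as for Vegfa with microsphere keratin (0.43 and -0.47).

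Minoxidil against untreated skin asked how the positive control moved these genes. By mean, 6 members were higher and 4 lower, and the median difference was 0.04, against -0.02 over all genes tested. The minoxidil arrays were above both untreated arrays for 0 members, against 7.48% of all genes. They were below both for 2 members, Hif1a and Fgf7, against 4.30% of all genes. Vegfa and Kdr had positive mean differences of 0.30 and 0.13, with 0.63 and 0.33 in the number 1 pair. The number 2 pair gave differences of -0.05 for Hif1a, -0.19 for Fgf7, -0.04 for Vegfa and -0.08 for Kdr. Fgf7 thus differed by nearly the same amount in both pairs, -0.21 and -0.19.

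Keratin against untreated skin gave mostly positive differences that lay in the number 1 pair. By mean, 8 members were higher and 2, Vegfa and Flt1, lower, with a median difference of 0.17 against 0.10 over all genes. In the number 1 pair 9 members were higher, with a median of 0.26 against 0.19 over all genes. In the number 2 pair 4 were higher, with a median of -0.01 against 0.02. The keratin arrays were apart from the untreated arrays for 0 members in either direction, against 20.0% of all genes higher and 5.28% lower. Vegfb, Igf1r, Met and Pdgfa were the 4 members higher in both pairs.

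Microsphere keratin against untreated skin, which uses the same untreated arrays, again gave its positive differences mainly in the number 1 pair. By mean, 7 members were higher and 3 lower, and the median difference was 0.07 against 0.10 over all genes. The arrays were apart and higher for 1 member, Igf1, against 14.6% of all genes, and apart and lower for 1 member, Fgf7, against 5.22%. Of the Igf1 probesets, only the one used lay apart. In the number 1 pair 8 members were higher and in the number 2 pair 2, Igf1 and Pdgfa.

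Microsphere keratin against keratin set the preparations of the protein side by side, both at 1% for 20 days. By mean, 3 members were higher and 7 lower, with a median difference of -0.06 against -0.01 over all genes. The arrays were apart for 0 members higher, against 5.12% of all genes, and for 1 member lower, Fgf7, against 10.4%. Vegfa and Igf1 differed by 0.02 each, with 95% intervals of -0.54 to 0.59 and -0.73 to 0.77. Kdr differed by 0.0039, with an interval of -0.39 to 0.40. These intervals do not show that the preparations acted alike.

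Leaving out any of the 8 arrays turned the sign of some of the 40 member differences. The number turned was 14 without untreated array 1 and 5 without untreated array 2, both of which enter 3 of the 4 comparisons. It was 4 and 2 without minoxidil arrays 1 and 2, 6 and 7 without keratin arrays 1 and 2, and 7 and 5 without microsphere keratin arrays 1 and 2. Leaving out untreated array 1 and minoxidil array 1 together turned 15. Without both, the difference of Vegfa with minoxidil was -0.04 and that of Igf1r with microsphere keratin -0.24. Of the 10 members, 3 (Igf1r, Met and Pdgfa) were higher on array 2 in all 4 groups, 30% against 34.2% of all genes tested. Flt1 was higher on array 1 in all 4 groups, 10% against 4.64% of all genes.

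Further probesets carry the same symbols for 5 members. Igf1 has 3, and all 3 were highest on keratin array 1 and next highest on microsphere keratin array 1. The probeset 1434413_PM_at read 72.3 on both, against 41.5 to 47.1 on the 6 other arrays, and 1452014_PM_a_at read 56.4 and 48.4, against 37.5 to 43.1. With microsphere keratin only the used Igf1 probeset lay apart from untreated. These others overlapped untreated, and their number 2 pair differences were -0.05 and -0.01. Hif1a has 2, and the one not used, 1416035_PM_at, was above the brightest background control on 0 arrays and read 33.1 on minoxidil array 1, 46.7 on keratin array 1 and 44.6 on microsphere keratin array 1. Igf1r has 4, of which 3 were higher on array 2 in all 4 groups. The Flt1 probesets disagreed. The used one, 1451756_PM_at, was highest on minoxidil array 1 at 58.3, whereas 1419300_PM_at was lowest there at 38.4 and highest on keratin array 1 at 57.8. The second Met probeset, 1422990_PM_at, stayed between 30.5 and 33.8, close to the background medians.

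**Figure D3:**
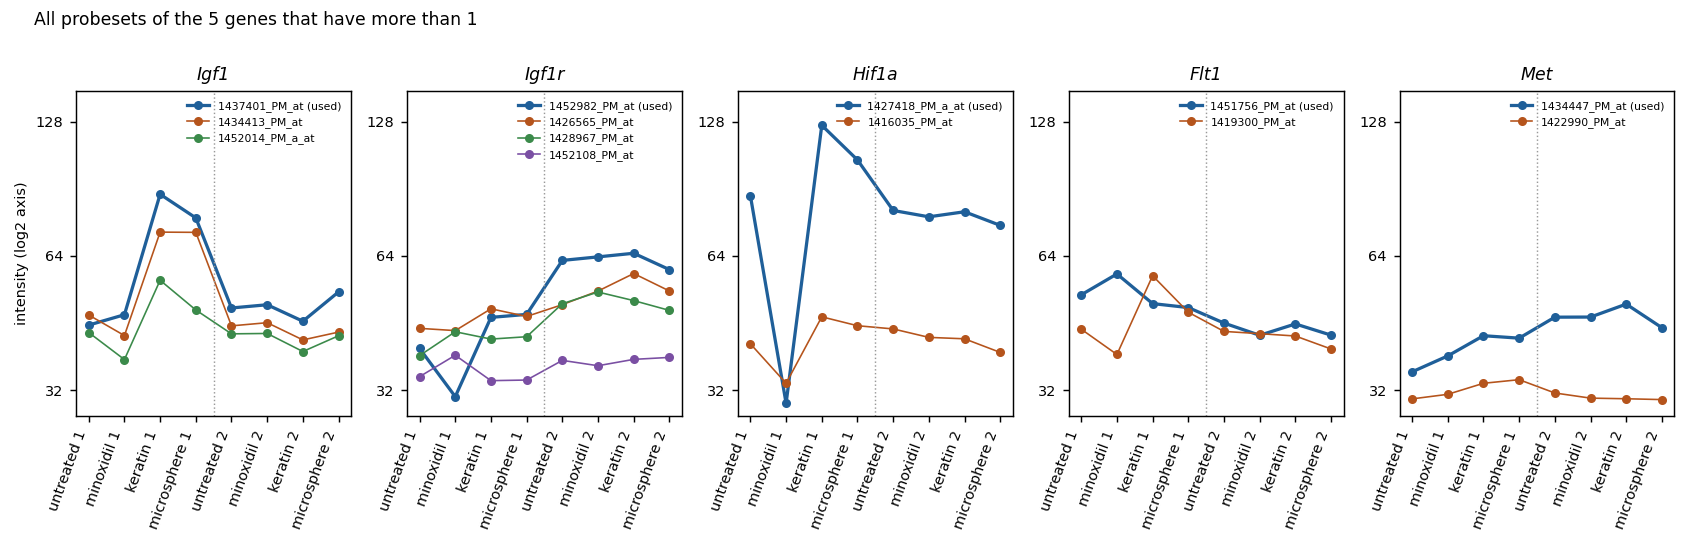
Intensity (log2 axis) of every probeset of the 5 genes with more than 1, over the number 1 arrays (left of the dotted line) and the number 2 arrays (right). Thick lines are the probesets used, and lines join values only to guide the eye. The 3 Igf1 probesets share the high values on keratin array 1 and microsphere keratin array 1, while the 2 Flt1 probesets part on minoxidil array 1 (58.3 and 38.4).

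The pathways around these genes were described with 8 lists. limma called 0 genes of any list in any comparison, and the adjusted p of every list gene named below was 1.00. List genes were named because their arrays lay apart and their differences were large. Neither being apart nor a low unadjusted p is therefore support for them. Several were dim, below the brightest background control on most or all arrays. With keratin, the genes apart and higher were 1 of 8 (VEGF), 2 of 8 (endothelial), 3 of 8 (HIF) and 2 of 16 (hypoxia). The other lists had 2 of 13 (IGF), 2 of 13 (FGF), 1 of 6 (HGF and MET) and 1 of 4 (PDGF), against 20.0% of all genes. In the VEGF and angiopoietin list, 8 of 14 genes were tested, and the median differences were -0.01, -0.0008 and 0.05 for minoxidil, keratin and microsphere keratin. Figf, which encodes VEGF-D, was apart from untreated with keratin. It read 53.2 and 47.9 on the untreated arrays and 57.5 and 70.3 with keratin, a difference of 0.33 ± 0.36 (SE). Of 8 endothelial markers tested, 4, 6 and 5 were higher with minoxidil, keratin and microsphere keratin. Cd34, also a marker of bulge stem cells, read 44.1 and 43.9 untreated, 75.1 and 44.9 with keratin and 65.0 and 45.8 with microsphere keratin, high on the same arrays as Igf1.

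The list of the HIF pathway, 8 of 9 tested, had all 8 genes higher with keratin by mean, with a median of 0.26 against 0.10 over all genes. The medians of the numbered pairs were 0.34 and 0.21. All 8 were lower by mean with microsphere keratin than with keratin, with a median of -0.14 and pair medians of 0.16 and -0.40. In the number 1 pair 6 of the 8 were higher. Egln3, an oxygen-sensing prolyl hydroxylase that is itself a HIF target, read 37.7 and 61.7 untreated, 63.6 and 64.4 with minoxidil, 63.5 and 82.5 with keratin and 47.5 and 52.1 with microsphere keratin. Both keratin arrays were above all untreated and microsphere keratin arrays. The keratin difference was 0.58 ± 0.28 (SE), 0.75 and 0.42 in the pairs, and microsphere keratin differed from keratin by -0.54 ± 0.28 (SE). The hypoxia targets, 16 of 19 tested, were lower with minoxidil for 13 genes, with a median of -0.33. The pairs gave -0.80 and 0.15. With keratin 15 of 16 were higher, with a median of 0.18, and -0.02 in the number 2 pair. Over all genes these medians were 0.10 and 0.02. Ndrg1 read 114 and 104 untreated and 37.3 and 93.1 with minoxidil, so its low value, like that of Hif1a, lay on minoxidil array 1. Of the 16 hypoxia targets, 3 were apart and lower with microsphere keratin than with keratin, against 10.4% of all genes. Slc2a1, the main glucose transporter, read 104 and 94.9 with keratin and 58.6 and 77.6 with microsphere keratin, a difference of -0.56 ± 0.41 (SE). Pfkfb3, a glycolysis regulator, read 42.8 and 57.8 with keratin and 39.9 and 35.6 with microsphere keratin (-0.40 ± 0.17, SE; limma unadjusted p = 0.0472). It was above the brightest background control only on keratin array 2.

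The IGF list, 13 of 14 tested, had 5, 12 and 10 genes higher with minoxidil, keratin and microsphere keratin, with medians of -0.08, 0.18 and 0.15. The medians over all genes were -0.02, 0.10 and 0.10. In the number 2 pair the keratin median of the IGF list was -0.06, against 0.02 over all genes. Igfbp2, an IGF-binding protein, read 30.9 and 36.8 untreated, 42.4 and 38.6 with keratin and 47.3 and 40.1 with microsphere keratin, apart from untreated in both. The differences were 0.26 and 0.37, each ± 0.19 (SE). Igfbp2 was below the brightest background control on every array. The FGF list, 13 of 18 tested, had medians of -0.01, 0.06 and 0.08. Fgf1 had the largest minoxidil difference among the FGF genes whose arrays lay apart. It read 33.9 and 42.5 untreated and 54.3 and 53.2 with minoxidil, a difference of 0.50 ± 0.16 (SE; limma unadjusted p = 0.0152), with 0.68 and 0.32 in the pairs. Spry1, which encodes a feedback inhibitor of FGF receptor signalling, read 52.8 and 53.1 untreated, 43.5 and 52.0 with minoxidil, 62.5 and 59.8 with keratin and 63.4 and 55.5 with microsphere keratin. It was apart from untreated in all 3 comparisons, with differences of -0.15, 0.21 and 0.16, each ± 0.20 (SE). Of the 13 FGF genes tested, 1, 2 and 2 were apart and higher, against 7.48%, 20.0% and 14.6% of all genes. Apart and lower were 2, 2 and 2, against 4.30%, 5.28% and 5.22%.

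The HGF and MET list, 6 of 10 tested, had medians of -0.29, 0.08 and 0.02. Hgf, the ligand of Met, was not among the named genes and was not analysed here. Gab1, an adaptor that couples Met to its targets, read 59.0 and 68.4 untreated and 78.4 and 69.4 with keratin, a difference of 0.22 ± 0.30 (SE). The PDGF list, 4 of 7 tested, had medians of 0.0023, 0.17 and 0.09. Pdgfc, a ligand of the same receptor as Pdgfa, read 38.2 and 42.3 untreated, 46.3 and 48.5 with minoxidil, 56.3 and 48.1 with keratin and 44.4 and 41.3 with microsphere keratin. Keratin and minoxidil arrays were above both untreated arrays, and the keratin difference was 0.37 ± 0.15 (SE; limma unadjusted p = 0.042). By mean, all 4 PDGF genes were lower with microsphere keratin than with keratin, with a median of -0.17 and pair medians of -0.19 and -0.18. Over all genes these medians were -0.01, -0.03 and 0.0040. In each numbered pair 1 of the 4 genes was higher. Apart and lower were 2 of the 4, against 10.4% of all genes.

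**Figure D4:**
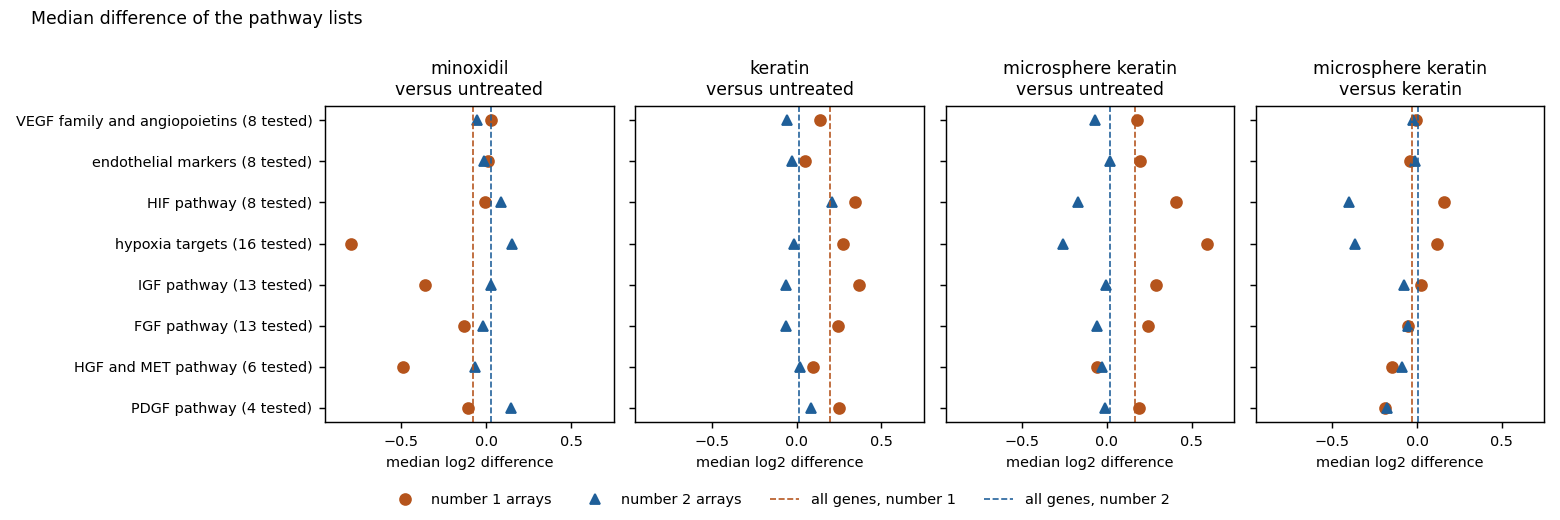
Median log2 difference of the tested genes of 8 pathway lists in the 4 comparisons, within the number 1 arrays (circles) and the number 2 arrays (triangles). Dashed lines are the medians over all genes tested. The hypoxia targets lie at -0.80 and 0.15 for minoxidil and at 0.59 and -0.26 for microsphere keratin, so the numbered arrays lie on opposite sides of 0.

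Genes with the most similar pattern were found by Pearson r of log2 values over the 7 arrays other than minoxidil array 1, among 4425 genes with an SD of at least 0.2. These arrays share group and array number, so r is a description only. Taking the best of 4425 genes over 7 arrays by itself favours a high r. The SD limit was not applied to the members, and Kdr had an SD of only 0.07. Igf1 was most like Wipf1 and Mmp3 (r = 0.99 for both, and 0.96 and 0.99 over 8 arrays). Vegfb was most like Tmem52 and Ank (0.99 for both, 0.99 and 0.96 over 8), and Igf1r like Mrps24 and Polh (0.996 and 0.995, 0.94 and 0.996 over 8). Hif1a was most like Gas7 and Tmem204 (0.99 for both, 0.82 and 0.88 over 8). Met was closest to Dync1h1 and Vps37a (0.99 for both), and Pdgfa to Ecsit and Kars (0.98 for both). Vegfa was most like Dbp and Ndufc1 (0.99 and 0.97), but over 8 arrays r was 0.01 and 0.09. Kdr was most like Dusp6 and Klk7 (0.95 for both), with -0.34 and -0.33 over 8 arrays. Flt1 was most like E2f5 and Efemp1 (0.98 and 0.95, 0.89 and -0.19 over 8). Fgf7 had the weakest best matches, Sparcl1 and Ifi27l2a (0.90 and 0.87).

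The authors' deposited tables give a signed fold for a treated array against the untreated array of the same number, past a fold of 1.3 or 2. In the authors' deposited table for microsphere keratin 2, Vegfa had -2.26, Fgf7 -1.57 and Vegfb -1.42, while Igf1 had 1.37 and Pdgfa 1.32. In the authors' deposited table for keratin 2, Vegfa had -1.87, Kdr -1.35 and Pdgfa 1.86. Probesets not used here were also in the authors' deposited table for keratin 2. There 1434413_PM_at and 1452014_PM_a_at of Igf1 had -1.38 and -1.33, and 1426565_PM_at of Igf1r had 1.71. In the authors' deposited table for minoxidil 2, Pdgfa had 1.96, Vegfb 1.53 and Fgf7 -1.55. The sign was that of the value table for 8 of 8 member probesets with microsphere keratin, 6 of 6 with keratin and 4 of 4 with minoxidil. Over all probesets listed it was the same for 99.9% in each of these. For the number 1 arrays, the authors' deposited tables listed larger folds. The keratin 1 table and the first microsphere keratin 1 table started at a fold of 2, the number 2 tables at 1.3. Hif1a had 9.11 with keratin and 7.20 with microsphere keratin in the authors' deposited tables, and the Igf1 probeset 1434413_PM_at had 9.65 and 11.21. The used Igf1 probeset, 1437401_PM_at, had 2.52 and 2.68 in the authors' deposited tables. In the authors' deposited tables Vegfa had 2.77 and 2.18 and Vegfb 3.45 and 3.27 for these arrays. The untreated array 1 values behind these folds were low. On the authors' log2 scale they were 0.74 for Vegfa, 0.56 for Vegfb and 0.55 for 1434413_PM_at, against 5.08, 4.49 and 3.55 on untreated array 2. For Hif1a and 1437401_PM_at the untreated array 1 values were less low, at 2.30 and 2.85. In the value table, Hif1a differed by 0.53 and 0.27 on the log2 scale, and 1434413_PM_at by 0.62 with each treatment.

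Signs did not match everywhere for the number 1 arrays. For keratin 10 of 12 member probesets had the sign of the value table, and for microsphere keratin 9 of 11, or 14 of 16 in a second table with a lower fold limit. Over all probesets listed, the shares with the same sign were 89.1%, 85.1% and 76.9% in that order. The exceptions among the members were Flt1 and Met. The used Flt1 probeset had folds of 2.27 and 2.00 in the authors' deposited tables and differences of -0.07 and -0.09 in the value table. The Met probeset 1422990_PM_at had -7.99 and -6.67 in the authors' deposited tables and 0.12 and 0.14 in the value table. Spearman's rho between the control column of the authors' deposited tables and the value table was 0.412 to 0.471 for untreated array 1 and 0.905 to 0.935 for untreated array 2. Since the second table bears the name of minoxidil array 1 above microsphere columns, the authors' values for minoxidil array 1 were not used.

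**Figure D5:**
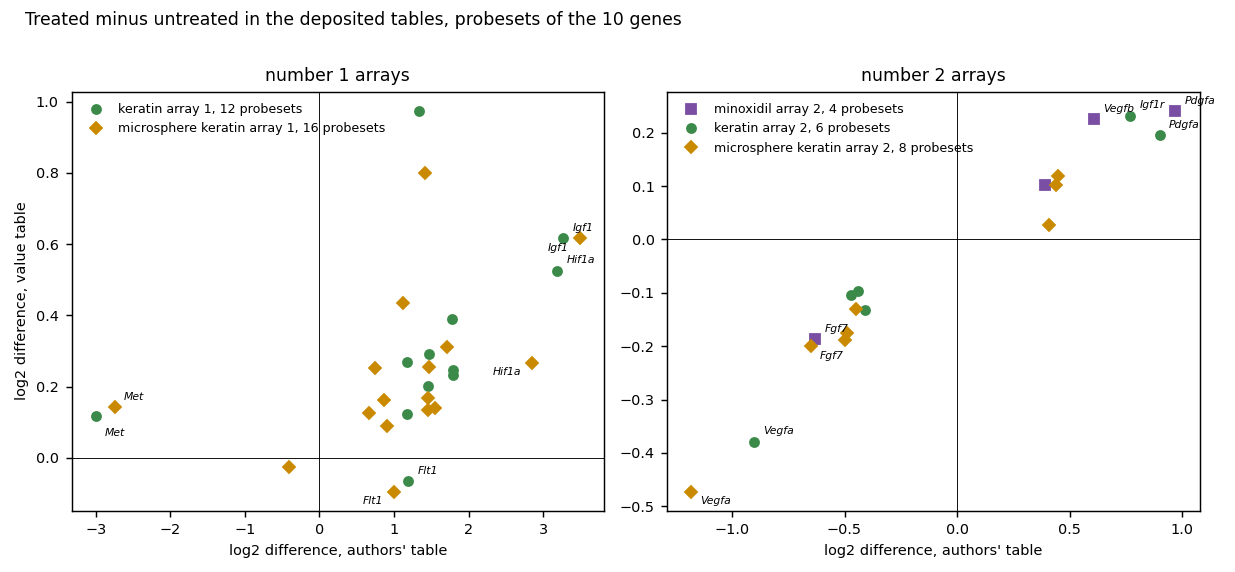
Log2 difference from the untreated array of the same number in the authors' deposited tables (horizontal) and in the value table (vertical), for probesets of the 10 genes. The points of the number 2 arrays all lie in the quadrants of equal sign. Among the number 1 arrays Flt1 and Met points lie in the other quadrants, with Met at -2.74 or below on the authors' axis.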

How the data were processed

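Arrays were of the type HT_MG-430_PM, per the file headers. The submitters' processing notes name Expression Console, RMA and Transcriptome Analysis Console. The authors deposited a value table of linear intensity (45141 probesets, 8 arrays). How its background was corrected and how arrays were normalized was not given in the labels or headers. Of the 6 tables of comparisons the authors deposited, each holds log2 values and a signed fold, a score that is negative where the treated array is lower, and 1 also holds p-values, not used here. They name 28918 probesets, 23804 with 1 symbol. Because they list probesets past a fold in these samples, which genes have a name depends on the data. Intensities were put on the log2 scale with no pseudocount. Genes below the 25th percentile of mean intensity were left out, and the rest were tested in limma 3.58.1 (R 4.3.3) with 4 group means, an intensity trend and 4 residual degrees of freedom. The fit was tested on simulated data. No arrays held identical values (0 pairs). The number of arrays limits the precision. Named genes were the members, up to 3 genes per list and comparison with arrays apart, and the 2 most similar genes per member. Members and lists were chosen with earlier results of these data known. Figures used matplotlib 3.10.9 in Python 3.11.15.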

Additional observations from a re-analysis of the deposited data

How the results depend on the processing

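In every setting tried, 0 of the 10 members passed the limma threshold, and their lowest adjusted p was 0.0586 (Hif1a with minoxidil, without minoxidil array 2). Genes called for minoxidil numbered 902 without minoxidil array 2 and 0 in all other settings, so leaving out arrays gave 0 to 902. The other comparisons had 0 throughout. Normexp correction changed the member differences and turned the sign of 0 of 40. Other filters, testing every probeset, no intensity trend, array weights, the replicate number as a block and, added after seeing the data, leaving out both minoxidil arrays (30 of the 40 differences) leave a difference of group means as it is, so they bear only on the p-values. The stricter filter tested 28 of the 40. With the replicate number as a block, limma called 0 genes in each comparison, and Fgf7, at -0.36 between microsphere keratin and keratin, had an unadjusted p of 0.0494. The labels share only the number, and deviations of same-numbered arrays correlated at 0.11 to 0.60 across 11235 genes.

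Signs turned under other settings. Quantile normalization gave Kdr -0.036 with keratin, and Kdr -0.023 and Hif1a -0.14 with microsphere keratin. The mean of all probesets gave Flt1 -0.035, Igf1 -0.038 and Igf1r 0.017 with minoxidil, Flt1 0.073 with keratin, and Igf1 -0.00086 between microsphere keratin and keratin. Leaving out untreated array 1 and minoxidil array 1, chosen after seeing the data, gave Vegfa -0.037, Vegfb 0.23, Flt1 -0.091, Kdr -0.076 and Igf1r 0.026 with minoxidil. It gave Flt1 0.069, Kdr -0.0040, Igf1r -0.19 and Met -0.020 with keratin. With microsphere keratin it gave Vegfb -0.11, Flt1 0.013, Kdr -0.00012, Igf1r -0.24, Met -0.12 and Pdgfa -0.029.

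Leaving out each array in turn gave these ranges, with the differences that kept their sign last in each comparison. With minoxidil the ranges were Vegfa -0.028 to 0.62, Vegfb -0.50 to 0.40, Flt1 -0.20 to 0.26, Kdr -0.038 to 0.29, Igf1 -0.013 to 0.11, Igf1r -0.69 to 0.35, Met -0.14 to 0.26 and Pdgfa -0.21 to 0.37, and Hif1a (-1.49 to -0.10) and Fgf7 (-0.27 to -0.12) kept theirs. With keratin they were Vegfa -0.37 to 0.28, Flt1 -0.14 to 0.069, Kdr -0.059 to 0.13, Hif1a -0.064 to 0.58, Igf1 -0.035 to 0.91, Igf1r -0.19 to 0.47, Fgf7 -0.0036 to 0.43 and Met -0.020 to 0.39, with Vegfb (0.010 to 0.35) and Pdgfa (0.0092 to 0.32) keeping theirs. With microsphere keratin they were Vegfa -0.34 to 0.30, Vegfb -0.11 to 0.23, Flt1 -0.20 to 0.013, Kdr -0.010 to 0.087, Hif1a -0.17 to 0.32, Igf1r -0.24 to 0.42, Met -0.12 to 0.29 and Pdgfa -0.029 to 0.22, with Igf1 (0.18 to 0.73) and Fgf7 (-0.21 to -0.078) keeping theirs. Between microsphere keratin and keratin they were Vegfa -0.11 to 0.15, Flt1 -0.16 to 0.046, Kdr -0.089 to 0.10, Hif1a -0.50 to 0.14, Igf1 -0.45 to 0.49, Igf1r -0.29 to 0.19, Met -0.21 to 0.021 and Pdgfa -0.22 to 0.086, with Vegfb (-0.22 to -0.014) and Fgf7 (-0.58 to -0.14) keeping theirs. The cause was not tested. A group left with a lone array is assumed to vary like the others. Low signal over background limits what could be seen for most members, Fgf7 and Met above all.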

Other observations

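Some genes of the lists had values that the comparisons above do not show. Igfbp5, which encodes an IGF-binding protein, read 509 on minoxidil array 1 and 78.3 to 117 on the 7 other arrays. Igfbp3 read 45.5 and 112 on the untreated arrays, 25.4 and 63.6 with minoxidil, 60.3 and 85.0 with keratin and 45.4 and 52.7 with microsphere keratin, higher on array 2 in every group. Vldlr, a lipoprotein receptor and hypoxia target, read 284 on keratin array 2 and 155 on keratin array 1, against 139 and 151 on the untreated arrays and 204 and 111 with microsphere keratin. Eno1, a glycolytic enzyme, read 113 on untreated array 1 and 172 on untreated array 2, and 174 to 225 with keratin and microsphere keratin. Pdgfrb, a receptor of PDGF ligands, read 56.0 and 52.5 on the untreated arrays, 60.8 and 50.9 with keratin and 46.9 and 44.6 with microsphere keratin. Both microsphere keratin arrays were below the untreated and keratin arrays, by -0.24 ± 0.27 and -0.28 ± 0.27 (SE, limma, adjusted p = 1.00) on the log2 scale.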
